A study of Mus musculus with 7 samples.

Results

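The G1/S and DNA replication genes described here are 32 genes of the machinery that starts S phase and copies DNA, taken by gene symbol from the 23282 entries of the deposited count table. All 32 are in the table once, and all 32 passed the filter on low counts. The mice were adult C57BL/6 animals with glioblastoma, and the 7 libraries hold tumour cells of 4 Fyn-KO and 3 WT mice. Per the labels, the Fyn-KO libraries carry the genotype FYN-KO and the WT libraries the genotype WT, with no other allele or treatment named, and in both groups the cells were sorted for the red fluorescent protein tdTomato. Cells of each mouse were sorted on their own and made into a library of their own. Libraries were made with QuantSeq, which sequences 1 tag near the 3' end of a polyadenylated RNA. The sources used here do not say how the tumours were induced, which other cells of the mice lacked Fyn or which part of Fyn was altered. Fyn encodes a tyrosine kinase of the Src family, and the design asks what its loss does to transcripts of glioblastoma cells.

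Before S phase, Cdc6 and Cdt1 load the ring of MCM proteins, the replicative helicase, onto origins of replication. Cyclin E with its kinase and the kinase that acts on MCM proteins then bring in Cdc45 and the GINS complex, which turn the ring into an active helicase, and polymerases, the clamp PCNA and its loader follow. Many of these genes are transcribed through E2F factors once the retinoblastoma protein is phosphorylated, so their transcripts are widely used as a readout of cells in G1/S, in gliomas as in other tumours.

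The 4 Fyn-KO libraries held 8976745 to 10396507 counts and the 3 WT libraries 11911864 to 16371244. Genes with a count numbered 13535 to 14548 in Fyn-KO and 7723 to 9924 in WT, so the WT libraries were deeper and held fewer genes. Rn45s, a precursor of ribosomal RNA, took 10.5 to 16.6% of the counts in Fyn-KO and 1.41 to 2.92% in WT. Fyn itself had 74.5 to 190 CPM (counts per 1000000 counts of a library) in Fyn-KO, against 720 to 1604 CPM in WT. Because QuantSeq counts 3' tags, a transcript altered elsewhere would still be counted. Markers of the labelled cells and of other cell types moved with the groups. All 10 markers of the oligodendrocyte lineage and glioma progenitors were lower in Fyn-KO (summed level 357 to 1457 CPM in Fyn-KO, against 15160 to 25460 CPM in WT). The 8 markers of steroid-producing cells summed to 27360 to 31570 CPM in Fyn-KO, against 89.0 to 480 CPM in WT, where 3 of them (Nr5a1, Mgarp and Akr1cl) had no count, and 3 of the 8 passed the test as higher. Summed markers of smooth muscle, erythroid cells and lymphocytes were also higher in every Fyn-KO library than in any WT library. Summed astrocyte markers were lower, and the values of these lists are given at the end. The part of these shifts in the results on replication genes was not tested. In such bulk libraries, fewer cycling cells and less RNA per cycling cell cannot be told apart.

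Of the 32 members, Ccne2, one of the E-type cyclins, was higher in Fyn-KO, Gins2, a subunit of the GINS complex, was lower, and 30 did not pass the test (edgeR quasi-likelihood test, two-sided, Benjamini-Hochberg adjusted p under 0.05 over 13122 genes tested). Over all genes tested, 19.0% were higher and 3.51% were lower, so 1 of 32 in each direction (3.12%) is no more than the background of the comparison. The members' fitted log2 fold changes (Fyn-KO minus WT) had a median of -1.16 and were negative for 22 of 32, against a median of 0.45 and 42.6% negative over all genes tested. The sign of the members' median changed with the fit, to 1.19 without WT replicate 2 and 0.91 by limma-voom with quality weights. The median over all genes tested rose as well, to 1.91 and 2.49 in those fits, so the members stayed below it. CPM of the groups did not overlap for 3 members: Ccne2 was higher in Fyn-KO, and Gins2 and Dut were lower. Over all genes tested, 30.1% did not overlap and were higher in Fyn-KO, and 7.32% did not overlap and were lower. Members differed far more among the WT libraries than among the Fyn-KO libraries, and the values of each library are therefore given below before any fold change.

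**Figure D1:**
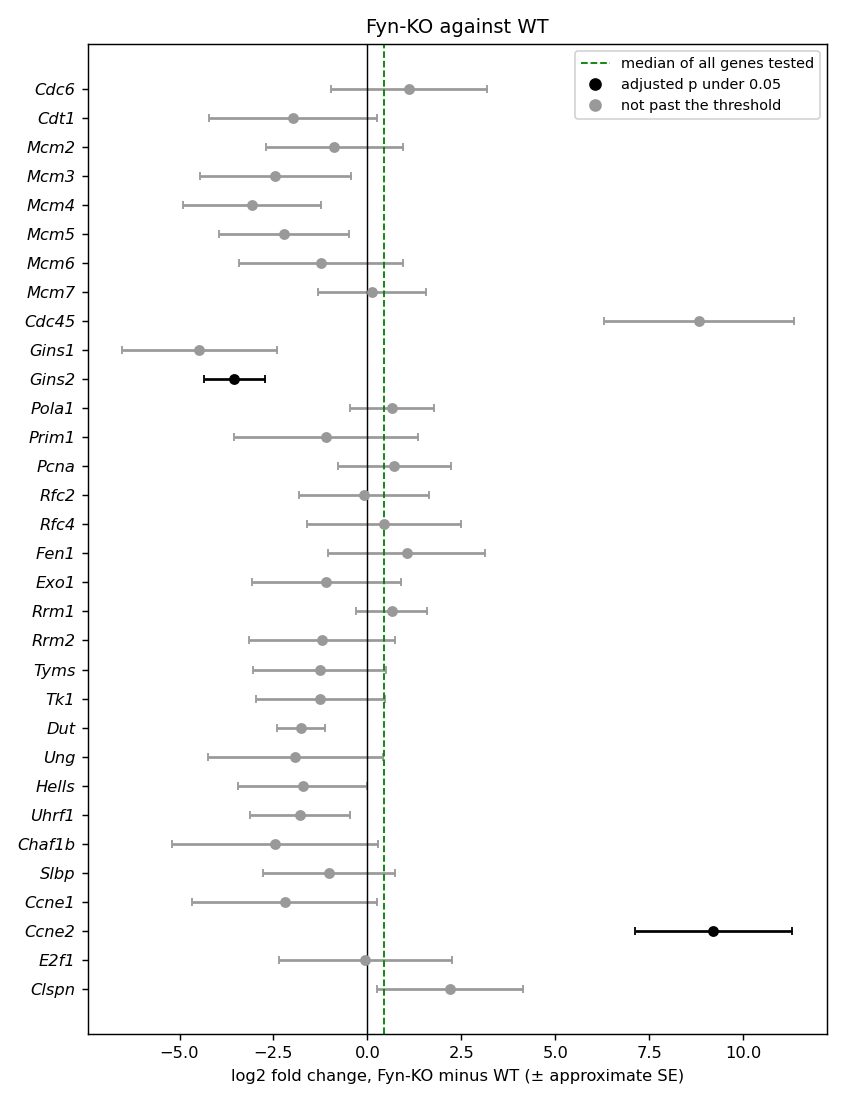
Log2 fold change of each member, Fyn-KO minus WT, with its approximate SE, from the edgeR fit to 4 Fyn-KO and 3 WT libraries. Black points passed the threshold, grey points did not, and the dashed line is the median of all genes tested (0.45). Ccne2 at 9.20 and Gins2 at -3.55 are the black points, and most error bars cross 0.

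Promoter windows of the members were searched for E2F sites. Genes of this kind are known for transcription through E2F factors, so an excess of sites is background and no independent finding. No count of these libraries enters the search. The motifs were TTTCGCGC, TTTGGCGC, TTTCCCGC and TTTGCCGC on both strands, in windows from 250 bases before to 50 bases after the start of transcription (RefSeq, GRCm38.p6). The table holds a window for 26 members, and it does not list Mcm4, Gins1, Gins2, Rfc2, Exo1 and Ccne2. A match was found in 10 of the 26 (38.5%), against 704 of all 27025 genes with a window (2.6%). The 10 were Cdc6, Cdt1, Mcm3, Mcm5, Mcm6, Mcm7, Pola1, Hells, Uhrf1 and Clspn. Stretches of 80 bases before the RefSeq start are printed for 5 of them, since these show both the single and the doubled form of the motif. Capitals mark the matches, and each stretch is in the direction of transcription.
Mcm5: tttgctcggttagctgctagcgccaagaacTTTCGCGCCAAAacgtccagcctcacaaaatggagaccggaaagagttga
Mcm6: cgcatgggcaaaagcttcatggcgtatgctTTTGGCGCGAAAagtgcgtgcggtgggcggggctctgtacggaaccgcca
Cdc6: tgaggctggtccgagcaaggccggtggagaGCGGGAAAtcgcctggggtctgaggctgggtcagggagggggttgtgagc
Hells: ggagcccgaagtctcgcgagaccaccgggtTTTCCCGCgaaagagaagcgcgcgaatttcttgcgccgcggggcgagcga
Pola1: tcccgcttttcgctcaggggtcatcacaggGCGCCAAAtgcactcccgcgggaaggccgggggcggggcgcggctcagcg
The positions are chr8:75109326-75109405 (plus strand), chr1:128359766-128359845 (minus), chr11:98907983-98908062 (plus), chr19:38930898-38930977 (plus) and chrX:93632244-93632323 (minus). In Mcm5 and Mcm6, 2 matches on opposite strands overlap within the capitals, while Cdc6, Hells and Pola1 hold 1 match each in the stretch shown. These windows follow RefSeq starts, which differ from the GENCODE gene spans given elsewhere. The Cdc6 stretch and most of the Hells stretch lie within the GENCODE span of the gene. A match in these letters does not show that a factor binds there.

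The loading factors Cdc6 and Cdt1 were measured in all 4 Fyn-KO libraries, and WT replicate 2 was the single WT library with 10 or more counts of either. Cdc6 (chromosome 11, 98907801 to 98923940, GRCm38), an ATPase that helps to load the MCM ring, stood at 6.18, 7.12, 14.01 and 16.04 CPM in Fyn-KO, against 0, 18.3 and 0 CPM in WT. Cdt1, its partner in loading, stood at 0.746, 11.6, 9.52 and 4.01 CPM in Fyn-KO, against 0.0783, 93.03 and 0 CPM in WT. For both genes the Fyn-KO values lie between the WT libraries, so the groups overlap. Neither passed the test (log2 fold change 1.10 ± 2.08, adjusted p = 0.800 for Cdc6, log2 fold change -1.97 ± 2.23, adjusted p = 0.649 for Cdt1, edgeR). A value of 0 in WT allows up to 3 counts, which is 0.183 to 0.252 CPM depending on the library, and this floor covers counting error only.

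Mcm2 to Mcm7 encode the subunits of 1 helicase ring, and their transcripts did not move together among the WT libraries. In WT replicate 1, Mcm7 alone reached 10 counts, at 2065 counts, and the others had 0 or 1. In WT replicate 3, Mcm3 and Mcm4 stood at 380 and 312 CPM, Mcm2 and Mcm5 at 14.5 and 10.6 CPM, and Mcm6 and Mcm7 had 1 count each. In WT replicate 2 all of them had counts, with Mcm5 at 418 CPM and Mcm3 at 6.78 CPM. In the Fyn-KO libraries each of them had 59 or more counts in every library.

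Mcm2 stood at 12.2, 9.14, 33.5 and 36.8 CPM in Fyn-KO, against 0, 131 and 14.5 CPM in WT. Mcm3 stood at 12.4, 17.99, 39.1 and 55.4 CPM in Fyn-KO, against 0, 6.78 and 379.6 CPM in WT. Fyn-KO replicates 3 and 4 held more of both than Fyn-KO replicates 1 and 2. Mcm4 had 25.04, 23.4, 6.46 and 23.8 CPM in Fyn-KO, against 0, 87.2 and 312 CPM in WT. Mcm6 had 29.9, 27.4, 6.79 and 21.7 CPM in Fyn-KO, against 0, 178 and 0.0839 CPM in WT, and Fyn-KO replicate 3 was the lowest Fyn-KO library for both genes. Mcm5 varied less among the Fyn-KO libraries, at 25.5, 18.7, 29.01 and 29.6 CPM, against 0.0783, 418 and 10.6 CPM in WT. Mcm7, which is also the host gene of a microRNA cluster, had the highest level of the ring's genes in each Fyn-KO library, at 61.4, 75.1, 103 and 137 CPM, against 162, 114 and 0.0839 CPM in WT. Mcm7 shares 64 exon bases of its last 600 with Cops6, a gene of the opposite strand with 698 to 1033 counts in Fyn-KO and 491 to 4319 counts in WT. In all 6 genes the Fyn-KO values lay between the lowest and the highest WT library. Fitted log2 fold changes were -3.08 ± 1.84 (SE) for Mcm4, -2.45 ± 2.01 for Mcm3, -2.22 ± 1.73 for Mcm5, -1.22 ± 2.18 for Mcm6, -0.88 ± 1.82 for Mcm2 and 0.13 ± 1.44 for Mcm7, and none passed (edgeR adjusted p 0.317 to 0.970, n = 4 Fyn-KO and 3 WT libraries). The fold change of Mcm3 was 3.47 without WT replicate 3, and that of Mcm6 was 8.38 without WT replicate 2 (edgeR adjusted p = 0.00670).

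**Figure D2:**
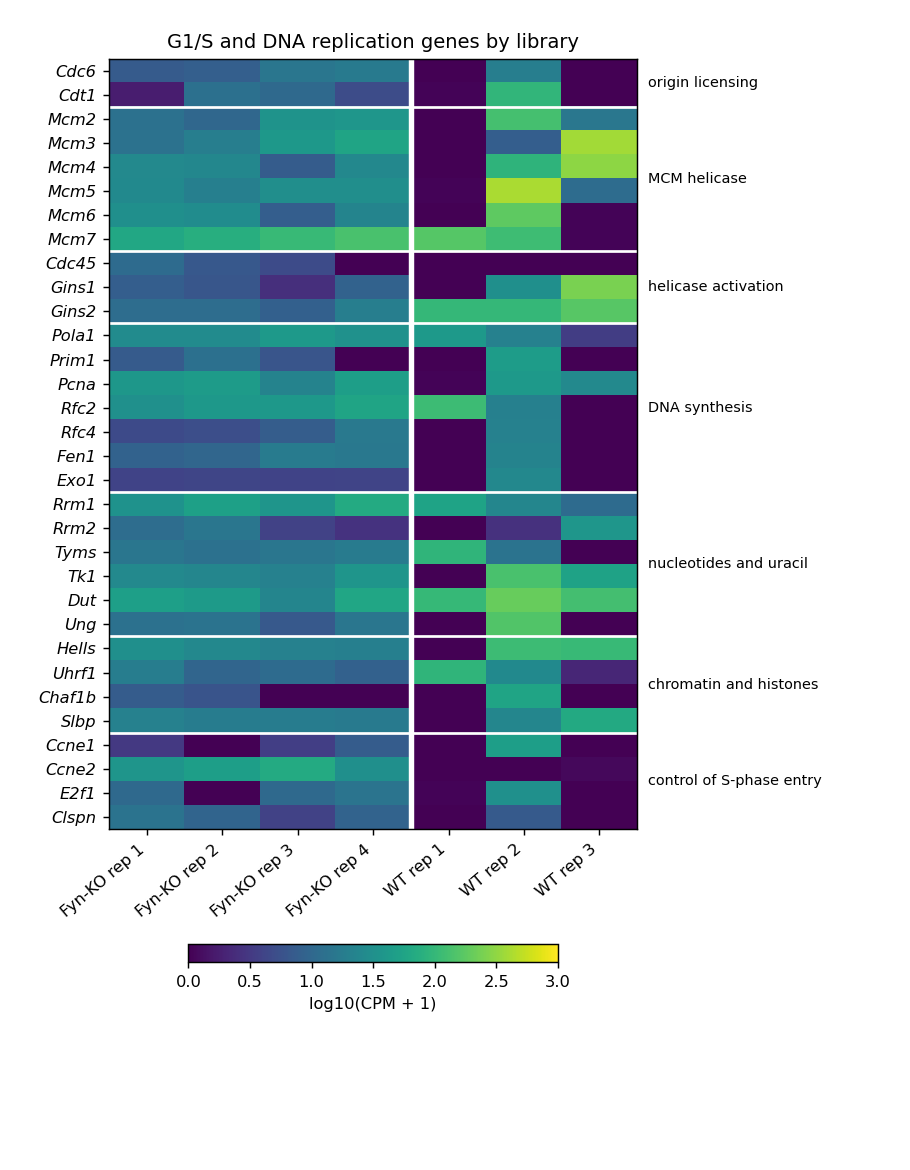
CPM of each member in each library as log10(CPM + 1), with the 4 Fyn-KO libraries on the left, the 3 WT libraries on the right and members grouped by role. Members under 10 counts number 1 to 3 in each Fyn-KO library, against 24, 2 and 17 in WT replicates 1, 2 and 3.

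Of the genes that activate the helicase, Cdc45 and the GINS subunits Gins1 and Gins2 had different patterns. Cdc45 (chromosome 16, 18780447 to 18811987), which binds the MCM ring at the fork, stood at 10.3, 5.77, 3.83 and 0 CPM in Fyn-KO and had no count in WT. The Fyn-KO mean was at least 22.3-fold higher than the WT floor of 3 counts per library (0.223 CPM on average), and the fitted log2 fold change of 8.82 ± 2.53 depends on how the fit treats the zeros. Fyn-KO replicate 4 also had no count, so the groups overlap and the test was not passed (edgeR adjusted p = 0.0544). Without Fyn-KO replicate 4 it was (edgeR adjusted p = 0.0201). Gins1 had 6.82, 5.39, 1.53 and 7.798 CPM in Fyn-KO, against 0, 30.1 and 245 CPM in WT, so WT replicate 1 lay below and the other WT libraries above every Fyn-KO library (log2 fold change -4.48 ± 2.06, edgeR adjusted p = 0.177). Without WT replicate 1 it was -5.07 (edgeR adjusted p = 0.0203).

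Gins2 fell in Fyn-KO by the test, and its tags cannot be told apart from those of Gse1. Gins2 (chromosome 8, 120578633 to 120589304, minus strand) stood at 10.7, 10.7, 7.22 and 18.1 CPM in Fyn-KO (11.7 ± 4.56, SD, n = 4), against 97.9, 98.5 and 167 CPM in WT (121 ± 39.6, n = 3). Every Fyn-KO library lay below every WT library. The log2 fold change was -3.55 ± 0.81 (edgeR adjusted p = 0.0150, exact two-sided permutation p of CPM = 0.0286, the smallest that 35 divisions of 7 libraries into 4 and 3 allow). It ran from -3.83 to -2.97 over 15 alternative settings and passed in 11 of them, with adjusted p from 1.68e-06 to 0.323. Gse1, a gene of the opposite strand (chromosome 8, 120228456 to 120581390), covers all of the last 600 bases of Gins2 with its exons. The sources used here do not give the strand setting of the counting. Gse1 had 147, 211, 87 and 184 counts in Fyn-KO, against 1260, 2967 and 1987 counts in WT. Gins2 had 100, 111, 66 and 162 counts in Fyn-KO, against 1251, 1612 and 1987 counts in WT. The counts of both genes were equal in WT replicate 3. Gse1 fell as well (log2 fold change -3.28 ± 0.71, edgeR adjusted p = 0.0129).

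**Figure D3:**
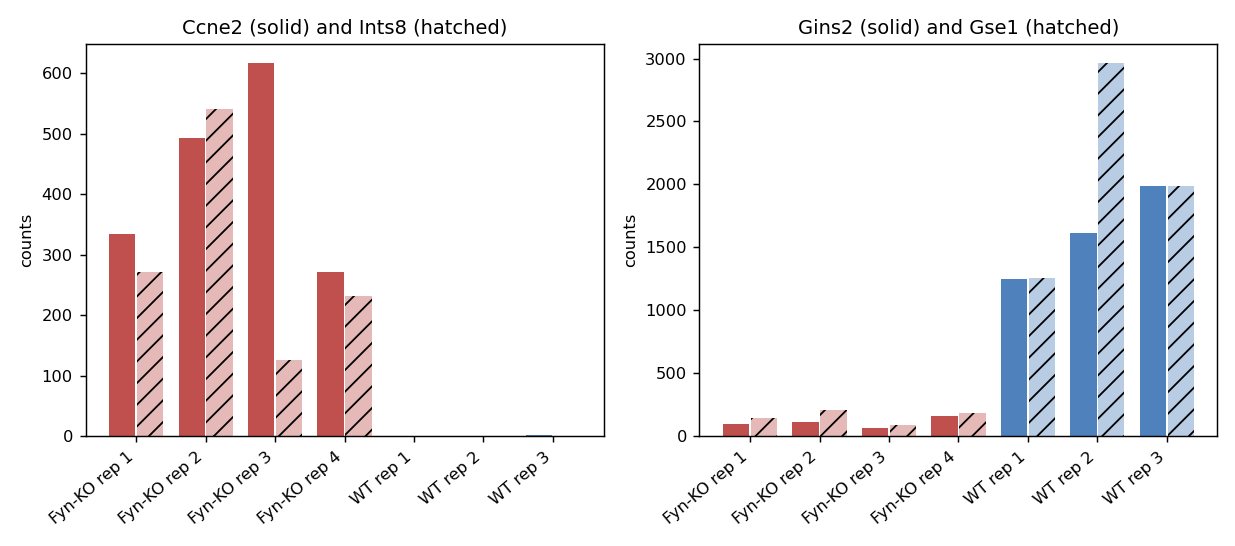
Counts of Ccne2 with Ints8 (left) and of Gins2 with Gse1 (right) in the 4 Fyn-KO (red) and 3 WT (blue) libraries; each pair lies on opposite strands with overlapping exons. Gins2 and Gse1 both had 1987 counts in WT replicate 3, and Ccne2 and Ints8 together had 2 counts in WT.

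Of the 7 members that prime, clamp, extend or trim new DNA, none passed the test in either direction. Pola1, the catalytic subunit of the polymerase that makes primers, had 27.2, 26.6, 40.9 and 31.6 CPM in Fyn-KO, against 40.5, 19.8 and 2.52 CPM in WT (log2 fold change 0.65 ± 1.11, adjusted p = 0.780, edgeR). Prim1, the primase subunit of the same complex, had 6.18, 11.6, 5.25 and 0 CPM in Fyn-KO, against 0, 44.9 and 0 CPM in WT. Pola1 was thus held by all WT libraries, and Prim1 by WT replicate 2 alone. Pcna, the sliding clamp, stood at 37.8, 43.8, 20.8 and 47.6 CPM in Fyn-KO, against 0.0783, 41.5 and 24.9 CPM in WT, with 1 count in WT replicate 1 (log2 fold change 0.71 ± 1.505, adjusted p = 0.827, edgeR). Rfc2, a subunit of the clamp loader, stood at 31.3, 38.9, 38.97 and 55.5 CPM in Fyn-KO, against 113, 19.5 and 0 CPM in WT. Rfc4, another subunit of the loader, stood at 3.73, 4.23, 6.68 and 15.4 CPM in Fyn-KO, against 0, 19.9 and 0 CPM in WT. The loader genes thus had their WT maximum in different libraries, Rfc2 in WT replicate 1 and Rfc4 in WT replicate 2. Rfc4 shares 194 exon bases of its last 600 with Eif4a2, a translation factor gene of the opposite strand with 995 to 2019 counts in Fyn-KO and 578 to 2685 counts in WT. Fen1, the flap nuclease of Okazaki fragments, had 7.78, 8.66, 16.5 and 14.7 CPM in Fyn-KO, against 0, 21.1 and 0 CPM in WT. Exo1, an exonuclease of mismatch repair, was the most even member in Fyn-KO, at 2.98, 3.27, 3.06 and 3.12 CPM, against 0, 24.1 and 0 CPM in WT. Prim1, Rfc4, Fen1 and Exo1 shared 1 pattern in WT, with 325 to 735 counts in WT replicate 2 and none in the other WT libraries. Fitted log2 fold changes of Prim1, Rfc2, Rfc4, Fen1 and Exo1 lay between -1.10 and 1.04 (edgeR adjusted p 0.790 to 0.982).

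Among genes of nucleotide supply, Dut was lower in every Fyn-KO library than in any WT library. Dut (chromosome 2, 125247190 to 125258608), which degrades dUTP and so keeps uracil out of DNA, stood at 48.9, 42.4, 22.4 and 58.7 CPM in Fyn-KO (43.1 ± 15.3, SD, n = 4), against 100.1, 199.7 and 126 CPM in WT (142 ± 51.7, n = 3). The exact two-sided permutation p of its CPM was 0.0286, unadjusted and the smallest that 7 libraries allow. Dut was singled out because its groups do not overlap, so this p adds no support. Over all genes tested, 7.32% did not overlap and were lower. The edgeR test, which adjusts over all genes, was not passed (log2 fold change -1.77 ± 0.64, adjusted p = 0.0831). Without WT replicate 1 it was (edgeR adjusted p = 0.0368), and the fold change lay between -1.97 and -1.45 in all 15 alternative settings. Rrm1, the large subunit of ribonucleotide reductase, was held by all 7 libraries, at 33.2, 49.05, 35.2 and 66.7 CPM in Fyn-KO, against 54.1, 22.97 and 10.2 CPM in WT (log2 fold change 0.65 ± 0.95, adjusted p = 0.734, edgeR). Its small subunit Rrm2 had 10.8, 14.04, 2.96 and 1.78 CPM in Fyn-KO, against 0, 1.71 and 36.8 CPM in WT, so the Fyn-KO values lay between those of WT replicates 2 and 3. Tyms, thymidylate synthase, was even in Fyn-KO at 14.2, 12.3, 14.01 and 16.8 CPM, against 91.7, 12.8 and 0 CPM in WT. Tk1, thymidine kinase of the salvage pathway, had 25.04, 23.1, 19.8 and 36.1 CPM in Fyn-KO, against 0, 138 and 52.4 CPM in WT. WT replicate 1 was thus the highest library for Tyms and had no count of Tk1. Ung, which removes uracil from DNA, had 12.04, 12.8, 5.91 and 14.04 CPM in Fyn-KO, against 0, 152 and 0 CPM in WT. Rrm2, Tyms, Tk1 and Ung did not pass (log2 fold changes -1.92 to -1.21, edgeR adjusted p 0.674 to 0.760).

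Members that act on chromatin and histones also followed single WT libraries. Hells, a remodeller needed for DNA methylation, had 30.3, 24.4, 20.03 and 18.7 CPM in Fyn-KO, against 0, 112 and 103 CPM in WT (log2 fold change -1.73 ± 1.72, adjusted p = 0.591, edgeR). Without WT replicate 1 it passed (log2 fold change -2.31, edgeR adjusted p = 0.0313). Uhrf1, which brings the maintenance methyltransferase to newly copied DNA, had 17.9, 8.56, 10.2 and 7.58 CPM in Fyn-KO, against 90.8, 25.6 and 1.09 CPM in WT (log2 fold change -1.79 ± 1.34, adjusted p = 0.445, edgeR). Its WT order was the reverse of that of Slbp, the binding protein of histone mRNA, which had 19.7, 17.2, 17.1 and 15.6 CPM in Fyn-KO, against 0, 23.03 and 64.7 CPM in WT. Chaf1b, a subunit of the histone chaperone CAF-1, had 6.39, 5.002, 0 and 0 CPM in Fyn-KO, against 0, 55.6 and 0 CPM in WT, and so was absent from 2 libraries in each group. Slbp (log2 fold change -1.02 ± 1.76) and Chaf1b (-2.46 ± 2.75) did not pass (edgeR adjusted p 0.781 and 0.642).

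Among the genes that control entry into S phase, the E-type cyclins differed from each other. Ccne2 (chromosome 4, 11191351 to 11204779, plus strand) had 334, 492, 617 and 271 counts in Fyn-KO, against 0, 0 and 2 counts in WT. This is 35.6, 47.3, 67.5 and 30.2 CPM in Fyn-KO (45.2 ± 16.5, SD, n = 4), against 0, 0 and 0.168 CPM in WT. All 4 Fyn-KO libraries were above all 3 WT libraries. The ratio of pooled counts was 929 with a 95% exact interval of 257 to 7670, which covers counting error only. The fit gave a log2 fold change of 9.20 ± 2.09 (edgeR, adjusted p = 0.0148), a size that depends on how the fit treats counts near 0. The exact two-sided permutation p of CPM was 0.0286, unadjusted and the smallest that 7 libraries allow. Ccne2 passed in 12 of the 14 alternative settings in which it was tested, each time as higher. Ints8, an Integrator subunit gene of the opposite strand (chromosome 4, 11199158 to 11254258), shares 404 exon bases of the last 600 of Ccne2. It had 271, 540, 126 and 231 counts in Fyn-KO and none in WT, and it was higher by the same test (edgeR adjusted p = 0.0121). With the strand setting unknown, tags of Ccne2 and Ints8 cannot be told apart there.

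The other E-type cyclin, Ccne1, had 2.13, 0, 2.63 and 6.46 CPM in Fyn-KO, against 0, 46.7 and 0 CPM in WT (log2 fold change -2.21 ± 2.46, adjusted p = 0.641, edgeR). WT replicate 2, the WT library that held Ccne1, had no count of Ccne2. E2f1, the transcription factor that many of these genes answer to, had 9.59, 0, 9.63 and 13.4 CPM in Fyn-KO, against 0.0783, 30.7 and 0 CPM in WT (log2 fold change -0.06 ± 2.30, adjusted p = 0.991, edgeR). Clspn, the checkpoint adaptor claspin, had 12.8, 8.27, 2.96 and 8.13 CPM in Fyn-KO, against 0, 6.17 and 0 CPM in WT (log2 fold change 2.20 ± 1.95, adjusted p = 0.539, edgeR). Ccne1 and E2f1 both lacked counts in Fyn-KO replicate 2 and in WT replicate 3, and E2f1 had 1 count in WT replicate 1.

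The spread among the WT columns was mostly a matter of which library held a gene at all. The Fyn-KO libraries held 31, 30, 31 and 29 members at 10 counts or more, against 8, 30 and 15 in WT replicates 1, 2 and 3. In WT replicate 1, 20 members had no count, 4 had 1 to 3 counts, none had 4 to 99 and 8 had 518 or more. In WT replicate 3, 14 had no count, 3 had 1 to 3, 2 had 10 to 99 and 13 had 100 or more. As shares of the 32 members these are 25.0%, 93.8% and 46.9% in WT, beside 43.5%, 66.8% and 43.8% of all genes tested in the same libraries. Fyn-KO libraries held 90.6 to 96.9% of the members and 94.6 to 96.4% of all genes tested. WT replicate 2 therefore held a larger share of the members than of all genes, and WT replicate 1 a smaller one.

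**Figure D4:**
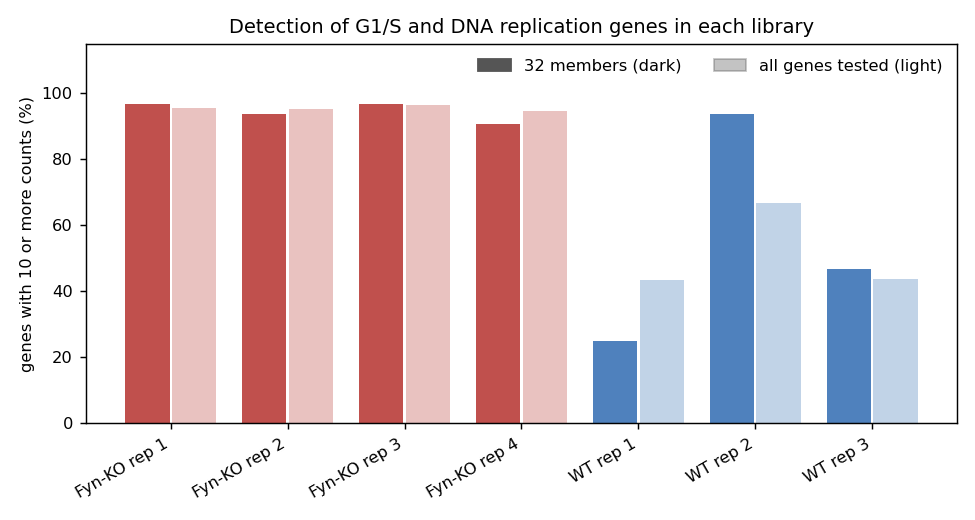
Share of the 32 members (dark bars) and of all genes tested (light bars) with 10 or more counts, in the 4 Fyn-KO (red) and 3 WT (blue) libraries. Fyn-KO libraries hold 90.6 to 96.9% of the members, while WT replicates 1, 2 and 3 hold 25.0%, 93.8% and 46.9%.

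Sorted by the WT libraries that held 10 or more counts, 5 members were in all of them (Gins2, Pola1, Rrm1, Dut and Uhrf1). WT replicates 2 and 3 shared 10 members (Mcm2, Mcm3, Mcm4, Mcm5, Gins1, Pcna, Rrm2, Tk1, Hells and Slbp), and WT replicates 1 and 2 shared 3 (Mcm7, Rfc2 and Tyms). WT replicate 2 alone held 12 members (Cdc6, Cdt1, Mcm6, Prim1, Rfc4, Fen1, Exo1, Ung, Chaf1b, Ccne1, E2f1 and Clspn), 37.5% of them beside 17.6% of all genes tested. WT replicates 1 and 3 held none on their own, beside 4.05% and 4.54% of all genes tested, and 2 members (Cdc45 and Ccne2) were in no WT library, 6.25% beside 23.1%. No member was held by WT replicates 1 and 3 without WT replicate 2.

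Members held by a WT library were mostly above the Fyn-KO range there, as were most of all genes held. Members were chosen here by their counts in that same library, so these shares are description and no support for a difference. Of the members held by WT replicates 1, 2 and 3, 6 of 8 (75.0%), 21 of 30 (70.0%) and 9 of 15 (60.0%) were above all 4 Fyn-KO libraries, beside 57.5%, 51.3% and 57.7% of all genes held. The median ratio of the held members to their Fyn-KO mean was 2.53, 4.10 and 2.92, and 1.70, 1.38 and 1.67 for all genes held. The members that WT replicate 1 held had a median Fyn-KO mean of 36.4 CPM, and those it lacked 11.0 CPM. The same medians over all genes tested were 49.4 and 14.96 CPM in the same order. Summed over the 32 members, CPM was 597, 614, 617 and 812 in Fyn-KO, against 750, 2193 and 1551 in WT.

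On the scale of log2(CPM + 1), the SD of a member among the libraries had a median of 0.55 in Fyn-KO and 3.17 in WT. Over all genes tested, these medians were 0.49 in Fyn-KO and 1.88 in WT. The SD was larger in WT than in Fyn-KO for 28 of 32 members, beside 72.0% of all genes tested. Among the 26 members with 10 or more counts in every Fyn-KO library, the highest library was 1.10 to 7.88 times the lowest, with a median of 2.33. Exo1 was at the even end and Rrm2 at the uneven end. Fyn-KO replicate 4 was the highest Fyn-KO library for 17 of 32 members, beside 26.7% of all genes tested, and its zeros were Cdc45, Prim1 and Chaf1b. Of the 5 members held by every WT library, Gins2 and Dut varied 1.7-fold and 2.0-fold among them, and Rrm1, Pola1 and Uhrf1 5.32-fold, 16.1-fold and 83.2-fold.

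Counts of members past the threshold followed the WT libraries in the fit. Without WT replicate 2, 9 members were higher in Fyn-KO (32.8% of all genes tested were) and 1 was lower (6.0% were). The 9 were Cdc6, Cdt1, Mcm6, Rfc4, Fen1, Exo1, Ung, Ccne2 and Clspn, and all of them but Ccne2 had 10 or more counts in the omitted library and in no other WT library. Without WT replicate 1, Ccne2 was higher (19.9% of all genes tested were) and 5 members were lower, namely Mcm4, Gins1, Gins2, Hells and Dut (5.17% were). Mcm4, Gins1 and Hells had no count in the library left out. Without WT replicate 3 the calls were Ccne2 and Gins2 again. Gins2 was lost without Fyn-KO replicate 1 or 2 (edgeR adjusted p = 0.0549 and 0.0540, log2 fold changes -3.49 and -3.49).

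**Figure D5:**
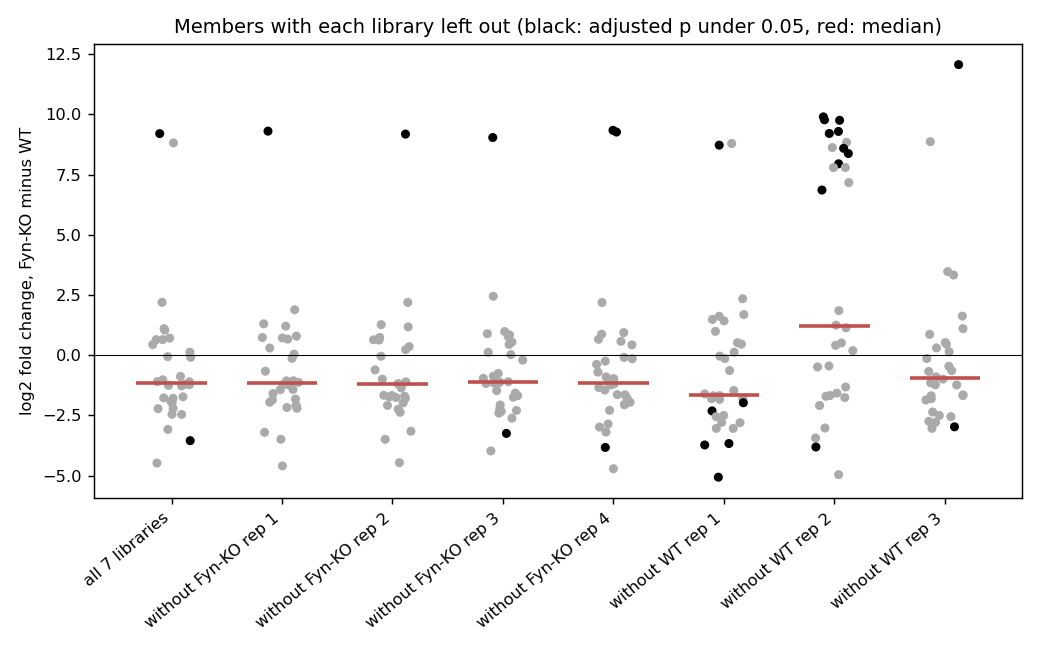
Log2 fold changes of the members, Fyn-KO minus WT, in the edgeR fit to all 7 libraries and with each library left out in turn. Black points passed the threshold and red lines are medians over the members. The median is -1.16 with all libraries, -1.64 without WT replicate 1 and 1.19 without WT replicate 2, beside 0.45, 0.85 and 1.91 over all genes tested.

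A narrower fit took the 6446 genes that reached 10 counts in 3 or more Fyn-KO libraries and in 2 or more WT libraries. It held 18 members, and 0 of them were higher and 0 lower in the edgeR test, beside 0.807% and 2.26% of those genes. Ccne2 and Cdc45, under 10 counts in every WT library, could not enter this fit, so it cannot say whether they were higher. At an unadjusted p under 0.05, 0 of the 18 were higher and 2 were lower, which were Gins2 (adjusted p = 0.0756) and Dut (adjusted p = 0.300). DESeq2 on all 7 libraries called 2 members higher, Cdc45 and Ccne2, beside 27.2% of all genes tested, and 3 lower, Gins1, Gins2 and Dut, beside 7.0%. DESeq2 gave no adjusted p for Cdt1, Mcm3, Mcm5, Mcm6, Rfc4, Exo1, Ung and Ccne1, so these could not be called by it.

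Other genes of the replication pathway were counted in the same edgeR fit, and no set test was run on them. Those named here passed it (adjusted p 0.0121 to 0.0435). Each list's counts stand beside 19.0% higher and 3.51% lower over all genes tested. Of 21 tested genes of origin licensing and the fork, 5 (23.8%) were higher and 0 lower in Fyn-KO (1 lower at an unadjusted p under 0.05, 0 by DESeq2), with a median log2 fold change of -0.48. Donson, which protects stalled forks, averaged 10.01 ± 1.69 CPM in Fyn-KO and had no count in WT, and Mcm9, a helicase of the MCM family, averaged 2.78 ± 1.42 CPM in Fyn-KO and had none in WT. Wdhd1, which ties the helicase to the polymerase, and Recql4, a helicase, averaged 5.04 ± 1.68 and 5.44 ± 3.19 CPM in Fyn-KO, and each had 1 count over the WT libraries. Of 19 tested genes of polymerases, clamp loaders and RPA, 4 were higher and 1 was lower (median 0.24). Chtf18, a subunit of an alternative clamp loader, averaged 7.31 ± 2.37 CPM in Fyn-KO with no count in WT, and Pole4, a subunit of polymerase epsilon, 39.0 ± 6.45 CPM in Fyn-KO, against 1.44 ± 1.71 CPM in WT. Pold3, a subunit of polymerase delta, fell to 13.4 ± 6.18 CPM in Fyn-KO, against 97.1 ± 8.89 CPM in WT, and was even across the WT libraries. Atad5, which unloads PCNA, averaged 15.4 ± 3.97 CPM in Fyn-KO, against 0.293 ± 0.436 CPM in WT.

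Of 21 genes of nucleotide supply, 2 were higher and 1 was lower (median -0.82), read against the same 19.0% and 3.51% of all genes tested. Ctps, which makes CTP, averaged 71.0 ± 11.7 CPM in Fyn-KO and had 2 counts over the WT libraries. Gmps, which makes GMP, averaged 17.3 ± 4.66 CPM in Fyn-KO and had 1 count over the WT libraries. Paics, an enzyme of purine synthesis, averaged 292 ± 96.4 CPM in Fyn-KO, against 672 ± 114 CPM in WT. Of 13 genes of chromatin assembly, 0 were higher (0 at an unadjusted p under 0.05 and 0 by DESeq2) and 1 was lower, with a median of -0.76. That gene was Rbbp4, a histone chaperone, with a mean of 240.0 ± 34.2 CPM in Fyn-KO, against 595 ± 232 CPM in WT. Of 24 E2F, RB and S-phase kinase genes, 3 were higher and 0 lower (1 lower at an unadjusted p under 0.05, 2 by DESeq2), with a median of -0.35. Tfdp2, a dimer partner of E2F factors, averaged 88.3 ± 14.7 CPM in Fyn-KO, against 0.394 ± 0.379 CPM in WT. Mybl2, a cell cycle transcription factor, averaged 4.42 ± 1.54 CPM and Lin37, a partner of it in the MuvB complex, 6.32 ± 6.36 CPM in Fyn-KO, and neither had a count in WT. Of 20 checkpoint and fork repair genes, 1 was higher and 0 lower (0 at an unadjusted p under 0.05 and 0 by DESeq2), with a median of -0.62. That gene was Chek1, the kinase of the S-phase checkpoint, at 10.1 ± 6.98 CPM in Fyn-KO with no count in WT.

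Upstream of S phase, 1 of 11 tested D-type cyclins, their kinases and CDK inhibitors was higher and 4 were lower (median -1.15). Cdkn1b, the inhibitor p27, fell to 223 ± 31.7 CPM in Fyn-KO, against 799 ± 174 CPM in WT, and Ccnd3, cyclin D3, to 169 ± 4.43 CPM in Fyn-KO, against 531 ± 181 CPM in WT. Ccnd1, cyclin D1, averaged 181 ± 120 CPM in Fyn-KO, against 2608 ± 1480.0 CPM in WT. In the opposite direction, Ccnd2, cyclin D2, averaged 595 ± 38.9 CPM in Fyn-KO, against 145 ± 62.9 CPM in WT. Downstream of S phase, 0 of 24 G2/M and mitosis genes were higher (1 at an unadjusted p under 0.05, 2 by DESeq2) and 5 were lower (median -0.71). Cdk1, the mitotic kinase, stood at 95.6, 83.2, 30.7 and 89.7 CPM in Fyn-KO, against 446, 555 and 325 CPM in WT, so the groups do not overlap. Plk1, a mitotic kinase, averaged 37.6 ± 9.75 CPM in Fyn-KO, against 205 ± 73.7 CPM in WT, and Cdc20, an activator of the anaphase-promoting complex, 24.0 ± 5.21 CPM in Fyn-KO, against 168 ± 90.3 CPM in WT. Birc5, survivin, averaged 46.5 ± 5.43 CPM in Fyn-KO, against 191 ± 48.7 CPM in WT. Of 153 tested genes of these lists together, 16 (10.5%) were higher and 12 (7.84%) were lower, beside 19.0% and 3.51% of all genes tested. The 12 lower genes had 10 or more counts in every WT library, as had all 461 lower genes of the whole table. Fewer than 10 counts in every WT library were found for 12 of the 16 higher genes (75.0%), beside 93.9% of all higher genes. Without WT replicate 2, 52 of 154 tested genes of these lists (33.8%) were higher, beside 32.8% of all genes tested in that fit. Without WT replicate 1, 19 of 154 (12.3%) were lower, beside 5.17%. With any 1 Fyn-KO library left out, 4 to 6 (2.7 to 4.0%) were lower. Lower genes of the whole table then numbered 247 to 351, against 461 with all libraries, so calls were lost across the table.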

How the data were processed

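RNA of sorted tdTomato-positive tumour cells was measured in 4 Fyn-KO and 3 WT libraries, 8976745 to 16371244 counts each. Per the submitters' processing notes, Bowtie2, bedtools and DESeq2 1.32.0 were used with mm10 (GRCm38). The annotation and the strand of counting are named nowhere in the sources used here. In the table as deposited, each gene has 1 whole-number count a library, without molecular identifiers. Its authors describe the counts as modified, and the labels do not say how. WT replicates 1, 2 and 3 are named after their columns. The samples' descriptions tie these columns to samples whose titles carry other numbers, and the column of WT replicate 3 has the title of another WT sample, so it was assigned by group alone.

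Counts were tested with the quasi-likelihood test of edgeR 4.0.16 (R 4.3.3), with TMM factors, filterByExpr (minimum count 10) and no covariates, on all 7 libraries. Adjusted p-values are by Benjamini-Hochberg over the genes of each fit, 13122 in the main fit and 6446 to 16599 in the alternatives. DESeq2 gave its own adjusted p, which was empty for Cdt1, Mcm3, Mcm5, Mcm6, Rfc4, Exo1, Ung and Ccne1. SEs were derived from the F statistic. CPM were counts divided by the library total. Single genes were also tested by exact two-sided permutation of CPM, without adjustment. Alternatives were other scaling factors, other filters, DESeq2 1.42.0, limma-voom (limma 3.58.1), each library left out in turn, and a fit with the replicate number. Intervals and floors cover counting error only, and p-values set the difference between the groups against the spread between libraries.

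The 32 members and the other lists were chosen with earlier results of these data known. All members are named, and of each other list up to 4 genes past the threshold, by p. Gene positions and overlaps are from GENCODE M21 (GRCm38), and promoter windows are from RefSeq (GRCm38.p6).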

Additional observations from a re-analysis of the deposited data

Results flagged for a closer look

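In Fyn-KO replicate 3, Mcm4 had 6.46 CPM, far from the other Fyn-KO libraries, which had 23.4 to 25.0 CPM. The gap took 0.910 of the group's range, above the 95% critical value of Dixon's test for 4 samples. All 32 members were checked in the Fyn-KO group, and chance alone gives such a gap in about 1 of 20 groups. The 3 WT libraries are too few for this check.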

How the results depend on the processing

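Of the 32 members, 13 reversed under none of the 15 alternatives in which they were fitted, and 19 reversed under 1 or more. Of the 13, Cdc45 was fitted in 10 alternatives and Cdc6, Fen1, Ccne2 and Clspn in 14, since filters dropped them from the others. The cause was not tested except where a library or gene was removed by construction. RLE factors and library sizes alone changed no member's call. With genes detected in both groups, 0 of the 18 members fitted were higher and 0 lower, other pathway lists had 1 higher and 3 lower, and Rfc2 was at 0.24. That filter removed Ccne2 and Cdc45 by construction. DESeq2 called 2 members higher and 3 lower. A minimum count of 50 left 8 genes of the other lists higher. With limma-voom, 0 members and 0 genes of the other lists were higher, the members' median log2 fold change was 0.91, and these turned positive: Mcm2 0.74, Mcm3 1.71, Mcm5 0.19, Mcm6 1.11, Rfc2 3.11, Exo1 0.69, Rrm2 2.08, Tyms 1.93, Tk1 0.70, Ung 0.83, Hells 0.43 and Slbp 1.29.

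The labels do not say that a replicate number marks a shared animal, litter or day. Deviations of same-numbered libraries correlated at -0.014, -0.00016 and -0.021. This cannot exclude a pairing, because WT numbers are those of columns and the samples' titles carry other numbers. No WT library shares the number of Fyn-KO replicate 4, so a fit with a replicate block takes no group difference from it. With a replicate block, 0 members were higher and 0 lower, 0 and 1 genes of the other lists were higher and lower, and 188 and 135 of all genes were. The median was 1.55, and these turned positive: Cdt1 2.93, Mcm2 1.07, Mcm3 1.69, Mcm5 1.20, Mcm6 5.53, Prim1 6.22, Rfc2 1.66, Exo1 5.28, Rrm2 3.13, Tyms 0.65, Ung 6.70, Chaf1b 0.99, Slbp 0.55, Ccne1 4.92 and E2f1 5.67.

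Leaving out 1 library gave 1 to 9 members higher, 0 to 5 lower, 11 to 52 genes of the other lists higher and 4 to 19 lower, and a median from -1.64 to 1.19. Without WT replicate 2 the other lists had 52 higher. Log2 fold changes ran from -2.55 to 6.86 for Cdt1, -1.47 to 1.25 for Mcm2, -3.04 to 3.47 for Mcm3, -2.80 to 1.85 for Mcm5, -1.81 to 8.38 for Mcm6, -0.46 to 0.99 for Mcm7, -1.69 to 8.84 for Prim1, -0.67 to 2.35 for Rfc2, -0.15 to 9.21 for Rfc4, -1.68 to 7.95 for Exo1, -1.80 to 3.33 for Rrm2, -1.86 to 1.43 for Tyms, -2.50 to 9.78 for Ung, -3.04 to 7.79 for Chaf1b, -1.61 to 0.87 for Slbp, -2.98 to 7.79 for Ccne1 and -0.64 to 7.17 for E2f1. Over all genes, voom called 24 higher and 320 lower, DESeq2 3564 and 918, the genes detected in both groups 52 and 146, and the fit without WT replicate 2 4585 and 839. Without 1 Fyn-KO library, 247 to 351 of all genes were lower. The median log2 fold change of all genes was 2.49 with voom, 3.45 with the replicate block and 1.91 without WT replicate 2.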

Other observations

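Markers of other cell types were summed in the same libraries. Astrocyte markers summed to 54.0 to 67.9 CPM in Fyn-KO, against 370 to 654 CPM in WT. Of 4 tested, Aldoc alone passed, as lower (22.8 to 34.95 CPM in Fyn-KO, against 278.5 to 401 CPM in WT). It made up most of the sum in each WT library. The other astrocyte markers overlapped between the groups. Aqp4 had no count in Fyn-KO, and its counts in WT replicates 1, 2 and 3 were 1569, 0 and 1. Gfap and Slc1a3 had a lower mean in Fyn-KO, while Aldh1l1 had a higher one (19.7 CPM, against 6.91 CPM in WT). Neuron markers summed to 36.0 to 49.2 CPM in Fyn-KO, against 46.9 to 122 CPM in WT. Microglia and macrophage markers summed to 146 to 173 CPM in Fyn-KO, against 118 to 332 CPM in WT. Of 7 tested, 2 passed as higher and 0 as lower. These were Cx3cr1 (46.9 to 75.2 CPM in Fyn-KO, 0 to 0.0611 CPM in WT) and Tmem119 (4.90 to 17.2 CPM in Fyn-KO, 0 to 0.0783 CPM in WT). The other tested markers of this list overlapped between the groups. T and B lymphocyte markers summed to 1.44 to 4.27 CPM in Fyn-KO, against 0 to 0.168 CPM in WT. Endothelial markers summed to 327 to 367 CPM in Fyn-KO, against 0.626 to 744 CPM in WT, erythroid markers to 1068 to 1137 CPM in Fyn-KO, against 25.7 to 667 CPM in WT, and smooth muscle and pericyte markers to 706 to 872 CPM in Fyn-KO, against 40.6 to 468 CPM in WT. In each of these last 3 lists, WT replicate 3 was the highest WT library. Of 5 tested smooth muscle and pericyte markers, 2 passed as higher and 0 as lower. These were Acta2 (210 to 377 CPM in Fyn-KO, 1.34 to 53.3 CPM in WT) and Myh11 (74.1 to 144 CPM in Fyn-KO, 0 to 0.504 CPM in WT). Pdgfrb had a lower mean in Fyn-KO (32.3 CPM, against 105 CPM in WT). Of the endothelial and erythroid markers, none passed.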
